A study of Mus musculus with 25 samples.

Results

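Ly6Clow and Ly6Chigh macrophages sorted from injured muscle at day 2 were compared across all genes of the deposited expression table, which lists 38087 genes. A gene entered the comparison when the subset with the higher level reached at least 50 normalised read counts, and 11275 genes did so. The tibialis anterior muscle of male C57BL/6J mice aged 2 to 4 months was injured by injecting 50 µl of cardiotoxin, which destroys fibres by opening their membrane. All cells were first collected as CD45+ leukocytes on magnets and then sorted. Macrophages with the phenotype Ly6Chigh F4/80low and those with the phenotype Ly6Clow F4/80high gave 3 samples each at day 2 and 2 each at day 4 after cardiotoxin, and Ly6Ghigh neutrophils gave 3 samples at day 1. A second table held cultured bone marrow-derived macrophages (BMDM) of the same strain, 3 untreated libraries and 3 exposed for 4 h to 10 nM resolvin D2 (RvD2), which cells derive from the fatty acid docosahexaenoic acid. Ly6Chigh cells of day 1 and blood monocytes, 6 samples in all, were not analysed here. The muscle table gives 1 value per gene and group, which its values show to be the authors' mean over the libraries of that group, so no muscle difference could be set against the spread between samples and none has a test.

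After a muscle injury, Ly6Chigh monocytes leave the blood, enter the damaged tissue and take up dead fibres, and the same cells are known to become Ly6Clow macrophages, which accompany the growth of new fibres. Ly6C is a small surface protein tied to the membrane by a lipid anchor, and F4/80 is an adhesion-type receptor that macrophages gain as they mature. Day 2 after cardiotoxin lies early in this change, when both subsets are present side by side. The study's title sets changes of lipid mediators beside the transition of one macrophage subset into the other, and among the groups analysed here the day 2 samples are the earliest pair of subsets.

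At day 2, 665 genes (5.9% of the 11275) were at least 2-fold higher in Ly6Clow than in Ly6Chigh cells, and 616 (5.46%) were at least 2-fold lower. These genes are referred to as called, and the 2 shares are the reference for each count of called list members below. Each difference is a log2 ratio of Ly6Clow over Ly6Chigh after 10 was added to both normalised counts, which compresses the ratio of genes with few counts. The median ratio of the 11275 genes was -0.0022, and 73.37% of them lay within 1.5-fold of equality. Ratios of at least 4-fold were reached by 115 genes on the higher side and 139 on the lower side, and ratios of at least 8-fold by 12 and 31. The 31 include several genes of the Ugt1a locus, which share exons and were counted singly. The lower side thus reached further, with the lowest ratio at -6.06 for the proteoglycan gene Vcan and the highest at 3.40 for the serotonin receptor gene Htr2b. Genes higher in Ly6Clow cells held 13.78% of all counts of that subset against 4.5% in Ly6Chigh cells, and genes lower in Ly6Clow cells held 3.71% against 11.37%. Just inside the level minimum stood Rpl29-ps5 at 50.06 counts and just outside it AL606528.1 at 49.99. Just inside the 2-fold threshold stood Fbxo21 at 1.0002 and Jak2 at -1.001, and just outside it Accs at 0.9989 and Pot1b at -0.9987.

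**Figure D1:**
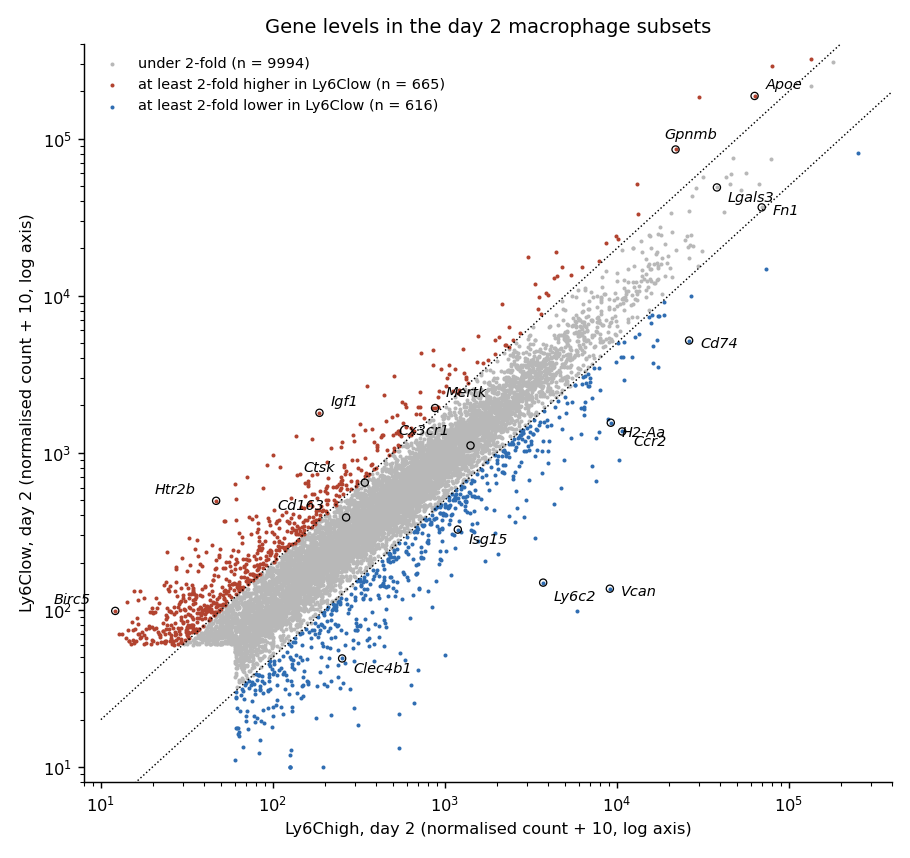
Each point is 1 of the 11275 genes, with its normalised count plus 10 in Ly6Chigh cells on the x axis and in Ly6Clow cells on the y axis, both on log scales, and dotted lines at 2-fold. Red points are the 665 genes higher in Ly6Clow cells, blue points the 616 lower ones, and the blue points reach further from the diagonal than the red.

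Summed normalised counts, written with M for mega, were 12.5 M in Ly6Chigh and 12.6 M in Ly6Clow cells, 11.9 and 12.8 M in the 2 subsets of day 4, 26.0 M in neutrophils, and 12.4 to 12.8 M in the BMDM libraries. The most common low values of the muscle table put 1 read of a library at 1.01 to 1.17 normalised counts in Ly6Chigh and at 0.835 to 0.850 in Ly6Clow cells. The minimum of 50 counts therefore stood for about 42.6 to 59.9 reads of a library. A level is a mean of log2 values in which a library without reads counts as 0, so a gene missing from 1 library has a lowered level.

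The sort was visible in the genes of its own antigens. Ly6c2 stood at 3717 counts in Ly6Chigh and 139 in Ly6Clow cells, and its close paralog Ly6c1 at 985 and 41.7. Because the paralogs are nearly identical, reads can be split between them. Emr1, which encodes F4/80, went the other way, from 8642 counts in Ly6Chigh to 14287 in Ly6Clow cells, a log2 ratio of 0.72 that did not reach 2-fold. Ly6g, the neutrophil antigen, was listed at 0 in both. Both subsets carried macrophage genes at high level. Csf1r, the receptor for macrophage colony-stimulating factor, stood at 20346 counts in Ly6Chigh and 14887 in Ly6Clow cells. Cd68, a lysosomal glycoprotein of macrophages, stood at 17733 and 27380, and Sfpi1, which encodes the myeloid factor PU.1, at 4066 and 3788. Ptprc, which encodes the CD45 used in the first isolation step, had 6762 counts in Ly6Chigh and 3170.3 in Ly6Clow cells, a called ratio of -1.09.

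Most markers of other cells stood at low level in both subsets. No gene of 20 T and NK cell markers and none of 14 markers of eosinophils, basophils and mast cells reached 50 counts. Their summed levels were 75.1 and 38.1 counts in Ly6Chigh cells and 30.3 and 45.2 in Ly6Clow cells. Of 14 fibroblast markers 4 could be compared, and all 4 were lower in Ly6Clow cells. These were Col1a1, Col1a2 and Col3a1, chains of fibrillar collagen, and Ly6a, which other cell types also make. The whole fibroblast list summed to 608.4 counts in Ly6Chigh and 144.5 in Ly6Clow cells, with none of its genes at 0 in the first and 2 at 0 in the second. The endothelial list summed to 614.5 and 494.5 counts, with Cdh5 and Pecam1 lower in Ly6Clow cells. The B cell list summed to 979.8 and 278.5 counts, most of it Ighm, an antibody heavy chain, while 4 and 8 of its genes were at 0. The skeletal muscle list summed to 317.1 and 385.1 counts. The neutrophil list summed to 4445.8 and 3181.2 counts, with 3 and 5 genes at 0. Its largest part in Ly6Chigh cells was Cd177 at 2018 counts, with a ratio of -3.16. Of the 7 neutrophil markers compared, 4 had ratios above 0 and 3 below, with a median of 0.56. The erythroid and platelet list summed to 3838.7 and 12146.6 counts, with 1 and 2 genes at 0. Most of it was Pf4, a chemokine of platelets that macrophages also make, which was called higher at 3353 and 11871 counts. Ppbp, another platelet chemokine, had 431 and 246. The plasmacytoid dendritic cell list summed to 6752.3 and 5235.7 counts, with 0 and 4 genes at 0. Most of it was Irf7, called lower at 3720 and 1169 counts, and Bst2 at 2100 and 3322, interferon-induced genes that macrophages also express, while Siglech, which marks these cells, had 11.2 and 0. In sorted bulk cells, fewer cells of a type and less RNA of a gene per cell cannot be told apart, and the part these cells play in any difference below was not tested.

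Genes of DNA replication were higher in Ly6Clow than in Ly6Chigh cells almost as a block at day 2. DNA replication starts when the MCM ring is loaded on origins, is switched on with Cdc45 and the GINS complex, and then draws polymerases, clamp loaders and a ligase to the fork. Of 42 replication genes 39 had enough counts, 24 of them were at least 2-fold higher in Ly6Clow cells and none lower, against 5.9% higher over all genes. All 39 ratios were above 0 and their median was 1.32. Clspn, which couples the fork to the checkpoint kinase Chk1, had 4.12 counts in Ly6Chigh and 102 in Ly6Clow cells. Lig1, the ligase that joins Okazaki fragments, had 77.1 counts in Ly6Chigh and 590.4 in Ly6Clow cells, a 6.89-fold difference on the scale used. All 6 subunits of the MCM ring were called, and the largest ratio among them was that of Mcm7 at 2.32, with 65.8 counts against 369. The smallest was that of Mcm4 at 1.38. Pole, the catalytic subunit of the leading-strand polymerase, went from 15.3 to 131 counts. Pcna, the sliding clamp, was present at 1266 counts in Ly6Chigh and 1631 in Ly6Clow cells and was not called, and neither was the licensing factor Cdt1 at 944 and 952. The ratios of this list therefore ran from 0.01 for Cdt1 to 2.99 for Clspn.

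Enzymes that make deoxynucleotides were higher too. Of 21 genes of nucleotide supply 7 were higher in Ly6Clow cells and none lower, with a median ratio of 0.60. Rrm2, the small subunit of ribonucleotide reductase, had 19.5 counts in Ly6Chigh and 203 in Ly6Clow cells. Tyms, which makes thymidylate, went from 15.2 to 88.6, and Dut, which removes dUTP, from 24.4 to 119. Enzymes that build the purine and pyrimidine rings, such as Umps at 0.04 and Cad at 0.16, differed little. Genes of homologous recombination gave 5 of 15 higher and none lower, among them Brca1 with a ratio of 2.40. Of 25 genes of condensin, cohesin and chromatin assembly 10 were higher and 1 was lower. Uhrf1, which brings the maintenance methyltransferase to newly made DNA, had 50.8 counts in Ly6Chigh and 365 in Ly6Clow cells. The condensin subunit Ncapd2 went from 42.3 to 355. The cohesin ring genes Smc1a, Smc3 and Rad21, which every cell uses, had ratios of 0.05, 0.03 and 0.22. The member that was lower in Ly6Clow cells was Lmnb1, a lamin of the nuclear envelope, at 2811 and 1213 counts.

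Genes of mitosis showed the largest median difference of any list on the higher side at day 2. Of 43 genes of the spindle, kinetochore and cytokinesis, called mitotic below, 31 had enough counts, 25 were higher in Ly6Clow cells and 1 was lower, with a median ratio of 2.00. In Ly6Chigh cells 24 of these 25 genes stood under 35 counts, and the median of the list was 2.64 with 1 count added, 1.02 with 50 added and 0.57 when genes under 200 counts were left out. Birc5, the survivin subunit of the chromosomal passenger complex, had 2.12 counts in Ly6Chigh and 88.4 in Ly6Clow cells. Kif11, the motor that pushes the spindle poles apart, had 7.87 and 109.7. Tpx2, which activates Aurora A on the spindle, had 17.4 and 173 counts. Cdk1, the kinase that drives entry into mitosis, went from 23.1 to 182 counts. Racgap1, needed to split the dividing cell, went from 34.3 to 247. Each of these genes was thus at a low level in Ly6Chigh cells and severalfold higher in Ly6Clow cells. Cenpa, the histone H3 of centromeres, was the exception at 805 counts in Ly6Chigh and 343 in Ly6Clow cells.

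Among regulators of the cell cycle more genes were called higher than lower. Of 29 cyclins, kinases, inhibitors and E2F factors 11 were higher and 1 was lower. Ccna2, the cyclin of S phase and early mitosis, had 27.8 counts in Ly6Chigh and 185 in Ly6Clow cells. Mybl2 and Foxm1, factors that switch on mitotic genes, had 58.9 and 130.4 counts in Ly6Clow cells against 7.72 and 30.4 in Ly6Chigh cells. Pkmyt1 and Wee1, kinases that hold Cdk1 in check, were also called higher, with ratios of 2.51 and 2.02. Of the inhibitors, Cdkn1b, which encodes p27, was lower at 676 and 304 counts, and Cdkn1a, which encodes p21, had 9761 and 5697 counts with a ratio of -0.78 short of 2-fold. The D-type cyclins that answer growth signals did not follow the S phase genes, with ratios of 0.71 for Ccnd1, -0.93 for Ccnd2 and -0.92 for Ccnd3.

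Promoters of mitotic genes are known for a cell cycle homology region (CHR), the letters TTTGAA, bound by a complex that silences them in resting cells and activates them in dividing ones. RefSeq promoters on GRCm38.p6, from 250 bases before to 50 after the start of transcription, were matched for 27 of the 31 mitotic genes, and 19 of the 27 (70.4%) held these letters on either strand, against 17.9% of all 32851 promoters in the table. CCAAT boxes stood in 20 of the 27 (74.1%), against 37.4% of all promoters. Genes of MHC class I presentation, none of them called higher in Ly6Clow cells, held such boxes in 75.0% of matched promoters. The CHR letters depend on the window. Between 200 bases before the start and the start itself they were found in 25.9% of the 27, against 12.5% of all promoters. Other lists held them often too. Matched promoters of condensin, cohesin and chromatin assembly genes had 40.0% in both windows. Those of C-type lectin genes, listed below, had 50.0% in the wider window and 35.7% in the narrower. A match is a description of the letters and not a bound site. Kif11 and Cdk1 were picked from the list for a large ratio and a promoter that holds the letters before the start. Their promoters are shown as the 150 bases up to the start. The CHR letters, or their reverse complement TTCAAA, are in capitals. The Kif11 stretch lies at chr19:37376232-37376381 on the plus strand and has the letters 19 bases before the start. The Cdk1 stretch lies at chr10:69352913-69353062 on the minus strand and has them 71 and 15 bases before the start.
Kif11: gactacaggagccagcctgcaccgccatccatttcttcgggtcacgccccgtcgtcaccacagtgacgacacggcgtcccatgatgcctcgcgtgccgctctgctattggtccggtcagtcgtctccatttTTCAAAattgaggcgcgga
Cdk1: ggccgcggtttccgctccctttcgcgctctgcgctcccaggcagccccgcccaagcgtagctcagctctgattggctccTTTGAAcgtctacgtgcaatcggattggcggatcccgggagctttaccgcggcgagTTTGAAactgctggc

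Lysosomal genes were the most abundant group that was higher in Ly6Clow cells. Lysosomes digest what a phagocyte has taken up, and their proteases, glycosidases and lipases work in the acid that a proton pump provides. The aspartic protease Ctsd stood at 79615 counts in Ly6Chigh and 288869 in Ly6Clow cells and the cysteine protease Ctsb at 133797 and 318996, the 2 largest differences in counts of all genes on the higher side. Of 14 cathepsins and inhibitors 3 were higher and 1 was lower. The lower one was Ctsc, the protease that activates the granule enzymes of other leukocytes, at 15966 and 7509 counts. Of 43 hydrolases and membrane proteins of the lysosome 10 were higher and none lower, with 33 ratios above 0 and a median of 0.63. Arsb, Sgsh, Galns and Naglu, which take apart the sulfated sugars of matrix proteoglycans, had ratios of 1.51, 1.38, 1.18 and 1.40. Smpd1, the acid sphingomyelinase, went from 159.7 to 449 counts, and Lipa, which frees cholesterol from its esters, from 5424 to 13484. The membrane protein Cd63 went from 2059.5 to 5476. The master factors of lysosomal genes, Tfeb, Tfe3 and Mitf, differed little at -0.11, -0.24 and 0.39. Of the 18 genes of the proton pump 1 was called, Atp6v0d2, a subunit known from osteoclasts and some macrophages, and the median of the pump was 0.18.

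Lysosomal promoters are known to carry a CLEAR element, whose core is the letters CACGTG followed by AC. This core stood in 7 of the 35 matched promoters of lysosomal hydrolases and membrane proteins (20.0%), against 2.25% of all promoters and 4.83% of those of all genes compared. Naglu, the member with the largest ratio whose promoter holds the core, is shown as the 150 bases before its start, at chr11:101069944-101070093 on the plus strand. The capitals mark the core as read on this strand, 75 bases before the start.
Naglu: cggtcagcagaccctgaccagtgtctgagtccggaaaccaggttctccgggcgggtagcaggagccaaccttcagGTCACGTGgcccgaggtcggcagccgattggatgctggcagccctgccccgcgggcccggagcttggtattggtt

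Receptors and bridging proteins for dying cells differed by gene rather than as a class. Of 19 such genes 8 were higher in Ly6Clow cells and 2 were lower. Mfge8, which bridges exposed phosphatidylserine to integrins, stood at 126 counts in Ly6Chigh and 1259 in Ly6Clow cells. Gas6, the ligand of the TAM receptors, went from 716 to 4289 counts. Of its receptors, Mertk was higher at 867 and 1915, while Axl was lower at 1468 and 519. Stab1, which binds phosphatidylserine directly, went from 13004 to 51308. The other lower gene was Thbs1, a secreted thrombospondin, at 253762 and 80552 counts, the largest difference in counts of all genes on the lower side. The integrin chains Itgav and Itgb5, to which Mfge8 binds, were level at -0.0049 and -0.02.

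Scavenger receptors and other genes of tissue-resident type gave 8 higher and none lower of 15, with a median of 1.17. Lyve1, a hyaluronan receptor, had 5.61 counts in Ly6Chigh and 122 in Ly6Clow cells. Folr2, a folate receptor, went from 499 to 3064, and Cbr2, a carbonyl reductase, from 1129.5 to 3391. The mannose receptor Mrc1, often taken as a repair marker, was not among them, with 12137 counts in Ly6Chigh and 8695 in Ly6Clow cells. Cd163, the receptor for hemoglobin bound to haptoglobin, had a ratio of 0.54 at day 2 and 2.24 at day 4. Complement split between its first and its later components. C1qa, C1qb and C1qc, the chains of the recognition molecule C1q, had ratios of 1.57, 1.27 and 1.58. C3, the central component, was lower at 4711 and 588 counts, and so were Cfb, C2, C4b and the second C5a receptor Gpr77, with ratios of -1.79, -1.53, -1.12 and -1.15.

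Growth factors were divided between the subsets. Of 20 genes 5 were higher in Ly6Clow cells and 7 were lower. Igf1, which supports the growth of muscle fibres, stood at 177 counts in Ly6Chigh and 1785 in Ly6Clow cells. Pdgfc, a mitogen of mesenchymal cells, went from 17.2 to 176, and Vegfb from 110.4 to 355. Gdf3, a member of the TGF-beta family made by macrophages, went from 300 to 629.8 counts. On the other side stood ligands of epidermal growth factor receptors and of gp130. Nrg1 was lower at 148 and 25.1 counts and Areg, known as a signal to muscle stem cells, at 229 and 69.7. Osm, or oncostatin M, had 6432 counts in Ly6Chigh and 1885 in Ly6Clow cells. The anti-inflammatory cytokine Il10 was also lower, at 423 and 135 counts. Tgfb1 was abundant in both, at 5048 and 4150.3 counts, and was not called.

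Some genes for taking up and holding lipid were higher in Ly6Clow cells and others lower, and several genes of sterol synthesis were lower. Of 27 genes of lipid uptake, storage and efflux 8 were higher and 4 were lower, with a median of 0.40. Lpl, the lipase that frees fatty acids from lipoproteins, had 3035 counts in Ly6Chigh and 17550 in Ly6Clow cells. Apoe, the apolipoprotein that carries cholesterol out of macrophages, had 63167 and 186732. Trem2, a lipid-sensing receptor of phagocytes, went from 3508 to 9835 counts, and Gpnmb, a glycoprotein of lipid-laden macrophages, from 21924 to 85174. The fatty acid carriers Fabp3, Fabp4 and Fabp5 were called higher too, and Fabp5 went from 8580 to 21484 counts. Abca1, the cholesterol exporter, had 0.96, just under 2-fold. Lower genes of the list included Olr1, a receptor for oxidised lipoprotein, and Dgat2, the last enzyme of triglyceride synthesis, with ratios of -1.90 and -2.37. Of 22 genes of cholesterol synthesis and uptake 5 were lower and none higher, with a median of -0.70. Cyp51, a sterol demethylase, had 761 counts in Ly6Chigh and 226 in Ly6Clow cells. Srebf2, the factor that drives the pathway, went from 2755 to 1291.

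Iron and heme genes gave 3 higher and 1 lower of 18, against 5.9% higher and 5.46% lower over all genes. Tfrc, the transferrin receptor that dividing cells need, stood at 444 counts in Ly6Chigh and 1592 in Ly6Clow cells. Slc48a1, which moves heme out of the phagolysosome, went from 1049 to 3634, and Blvrb, a biliverdin reductase, from 709 to 1745. Hmox1, which breaks heme open, had 10646 and 19493 counts and a ratio of 0.87, short of 2-fold. Hvcn1, the proton channel that balances the oxidative burst, was higher at 481 and 1688 counts, while the cytosolic oxidase subunit Ncf4 was lower at 2263 and 942. Of signalling genes, the adenylyl cyclase Adcy3 had 50.4 counts in Ly6Chigh and 626 in Ly6Clow cells, while the phosphodiesterases Pde4b and Pde4d, which break down its product cyclic AMP, were lower with ratios of -1.22 and -1.33. The adenosine receptors Adora2a and Adora2b, which stimulate such cyclases, were lower as well, with ratios of -1.91 and -1.79. S1pr1, a receptor for sphingosine-1-phosphate that guides leukocytes, was higher at 133 and 723 counts.

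**Figure D2:**
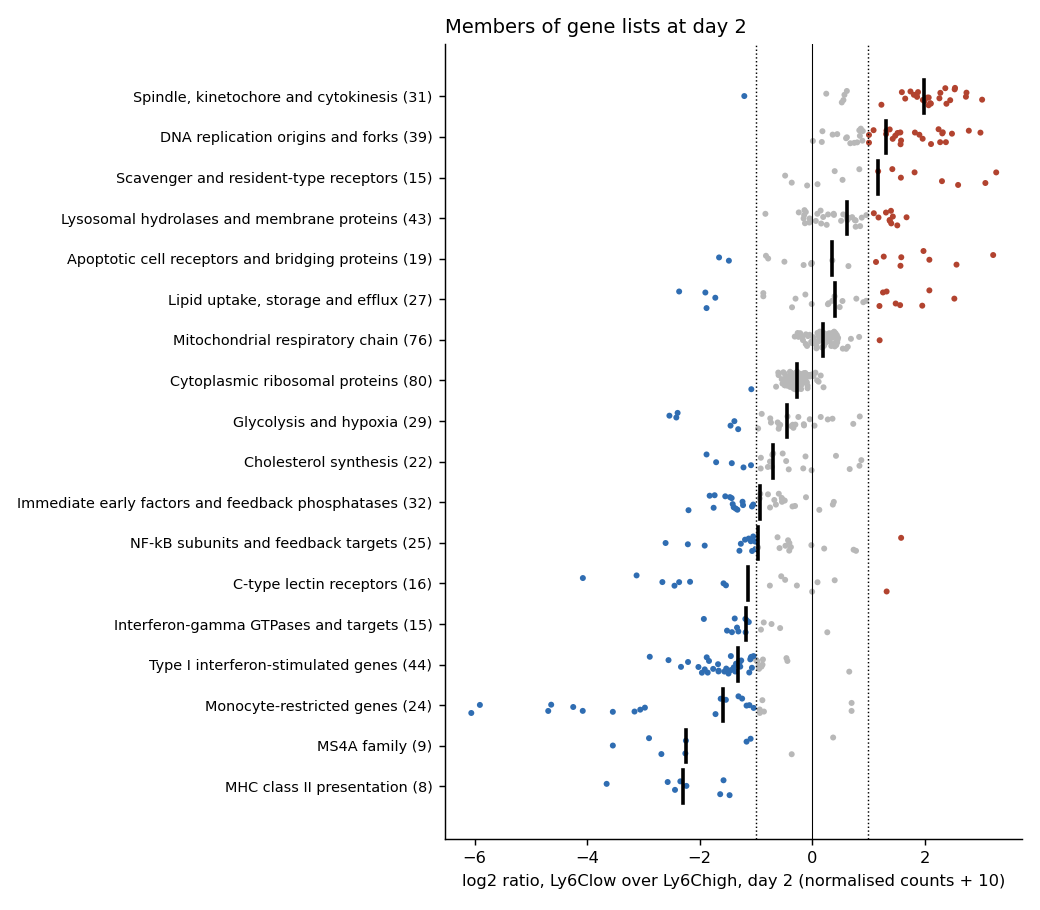
Log2 ratios of Ly6Clow over Ly6Chigh cells at day 2 for the compared members of 18 gene lists, 1 point per gene, with bars at the medians and dotted lines at 2-fold in either direction. Mitotic genes lie furthest to the higher side with a median of 2.00, and MHC class II genes furthest to the lower side with a median of -2.29.

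Turning to the lower side, genes of circulating monocytes were lower in Ly6Clow cells, 18 of 24 with none higher and a median of -1.58. Plac8, a small protein of blood leukocytes, stood at 5866 counts in Ly6Chigh and 87.8 in Ly6Clow cells. Ccr2, the chemokine receptor by which monocytes leave the bone marrow, went from 10724 to 1356, while Cx3cr1, the fractalkine receptor that rises in patrolling monocytes, was nearly level at 1399 and 1101. The calcium-binding proteins S100a4, S100a6 and S100a11 had ratios of -1.25, -1.12 and -1.04. Lyz2, the lysozyme of macrophages placed on the same list, ran the other way at 133854 and 217520 counts without reaching 2-fold. Among 26 adhesion genes 3 were higher and 6 were lower. Itgal, the alpha chain of LFA-1, had 2555 counts in Ly6Chigh and 351 in Ly6Clow cells. Itga1, which binds collagen, went from 234 to 21.8. The tetraspanin Cd9 and the laminin receptor chain Itga6 were higher, with ratios of 1.84 and 1.11. Serpinb10, a protease inhibitor of myeloid cells, stood at 186 counts in Ly6Chigh cells and was listed at 0 in Ly6Clow cells. The other 3 called genes listed at 0 there were Ugt1a5, Ugt1a9 and Ugt1a10. They share exons with their neighbours in 1 locus, but each was counted as a gene of its own.

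Genes induced by interferons were lower in Ly6Clow cells in nearly all cases. Type I interferon acts through a factor complex with Stat2 and Irf9, which binds the interferon-stimulated response element (ISRE) of target promoters, and interferon gamma acts on gamma-activated sequences (GAS). Of 44 type I interferon-stimulated genes 33 were lower and none higher, against 5.46% lower over all genes, with 43 ratios below 0 and a median of -1.33. Slfn4, a myeloid member of the Schlafen family, had 2870.3 counts in Ly6Chigh and 379 in Ly6Clow cells. Oas2, which senses double-stranded RNA, went from 1137 to 238, and Mx1, a GTPase that blocks virus replication, from 1093 to 294. Zbp1, a sensor of Z-form nucleic acid, went from 1732 to 438. Of the factors themselves, Stat2 had a ratio of -0.99 and Irf9 of -0.88, while Irf7, itself a target, had -1.66. Bst2, which tethers budding virus, was the only member above 0, at 2100 and 3322 counts. Of 15 genes tied to interferon gamma 10 were lower and none higher. Gbp9, a guanylate-binding protein that coats vacuoles of pathogens, had 455 counts in Ly6Chigh and 112 in Ly6Clow cells, and Ifi47, a related GTPase, 784 and 268.

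Of the 15 interferon gamma genes 14 had a promoter in the RefSeq table. An ISRE, here TTTC and TTTC with 2 bases between them, stood in 10 of the 14 (71.4%) against 3.44% of all promoters. A GAS, here TTC and GAA with 3 bases between them, stood in 8 of the 14 (57.1%) against 8.3%. Shown are the 150 bases before the start of Gbp7 (chr3:142530186-142530335, plus strand) and Gbp2 (chr3:142620513-142620662, plus strand), neighbours of one gene cluster, with these elements in capitals. In Gbp7 they begin 106 and 87 bases (GAS) and 53 bases (ISRE) before the start, and in Gbp2 an ISRE begins at 59 bases.
Gbp7: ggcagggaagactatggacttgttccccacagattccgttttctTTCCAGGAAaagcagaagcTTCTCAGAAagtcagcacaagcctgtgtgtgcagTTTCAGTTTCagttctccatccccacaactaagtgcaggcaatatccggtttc
Gbp2: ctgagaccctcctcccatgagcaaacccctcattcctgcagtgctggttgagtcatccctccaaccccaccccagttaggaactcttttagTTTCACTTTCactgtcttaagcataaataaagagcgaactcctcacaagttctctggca
Gbp7 had 291 counts in Ly6Chigh and 106 in Ly6Clow cells, and Gbp2 had 331 and 125.

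MHC class II genes, whose products show peptides to helper T cells, were all lower in Ly6Clow cells. The 8 genes with enough counts were called, with a median of -2.29. Ciita, the master activator of the class, had 287 counts in Ly6Chigh and 13.6 in Ly6Clow cells. Cd74, the invariant chain, had 26286 and 5169 counts, and H2-Ab1, a beta chain, 8852 and 1624. The peptide exchange genes H2-DMa and H2-DMb1 differed less, at -1.64 and -1.58. Classical dendritic cells also carry this class: of 13 of their markers 2 had enough counts, the list summed to 395.2 counts in Ly6Chigh and 152.3 in Ly6Clow cells, and the part of such cells was not tested. MHC class I presentation leaned the same way by far less. All 23 ratios lay below 0 with a median of -0.28, and only Nlrc5, the class I counterpart of Ciita, was called at 921 and 443 counts. H2-D1 and B2m, the abundant chains of class I, had ratios of -0.07 and -0.16.

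Among receptors that sense microbes and damage, more were called lower than higher. Of 16 C-type lectins 8 were lower and 1 was higher. Clec4e, or Mincle, which binds glycolipids and a protein of dead cells, stood at 7126 counts in Ly6Chigh and 809 in Ly6Clow cells. Clec7a, or dectin-1, the receptor for beta-glucan, went from 4919 to 893, and Clec4n, or dectin-2, from 1943 to 298. Of 25 Toll-like and NOD receptors and adaptors 4 were lower and none higher. The flagellin receptor Tlr5 had 645 counts in Ly6Chigh and 114 in Ly6Clow cells, the DNA sensor Tlr9 had 1437 and 341, and Nod2 and Tlr2 had ratios of -2.06 and -1.24. The endosomal RNA sensors Tlr7, Tlr8 and Tlr13 were not called and had ratios of 0.31, 0.80 and 0.59. Of 32 Fc and paired receptors 9 were lower and 2 were higher. The activating receptors Trem1, Trem3, Pilrb1 and Sirpb1a had ratios between -2.71 and -2.24, whereas Trem2 had 1.48 and Fcgrt, the neonatal Fc receptor, 1.18. Of 9 genes of the MS4A family of membrane proteins 7 were lower and none higher. Ms4a4c went from 3317 to 275 counts, while Ms4a7, known from mature macrophages, had 2932 and 3799.

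NF-kB is held in the cytoplasm by inhibitors that are themselves targets of the pathway. Of 25 NF-kB subunits and feedback targets 12 were lower in Ly6Clow cells and 1 was higher, with a median of -0.96. The inhibitors Nfkbie and Nfkbia had 3091 and 6327 counts in Ly6Chigh and 660 and 3013 in Ly6Clow cells. Traf1, an adaptor of TNF receptors, went from 789 to 121. The subunits Rel, Relb, Nfkb1 and Nfkb2 had ratios from -1.27 to -1.01, while Rela had -0.38 and the deubiquitinase Tnfaip3 -0.01. The higher gene was Bcl2a1b, a survival factor with near-identical copies, at 424 and 1289. Of 20 genes of the interleukin-1 family and inflammasomes 9 were lower and 1 was higher. Il1b had 10235 counts in Ly6Chigh and 886 in Ly6Clow cells, and Mefv, which encodes the sensor pyrin, 2340.4 and 388. Genes that restrain cytokines of the family were on both sides. The receptor antagonist Il1rn and the decoy receptor Il1r2 were lower with ratios of -1.32 and -2.16, and Il18bp, which binds interleukin-18, was higher with 1.02. Tnf was not called, at 1400.3 and 899.6 counts. The adaptor Pycard and Casp1, which complete the inflammasome, were level at 0.20 and 0.13.

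Immediate early genes, which cells induce within minutes of a stimulus, gave 15 lower and none higher of 32, with a median of -0.93. Btg2 stood at 3966 counts in Ly6Chigh and 856 in Ly6Clow cells. The nuclear receptors Nr4a1, Nr4a2 and Nr4a3 had ratios of -1.36, -1.75 and -1.46. Zfp36, which destabilises cytokine mRNAs, had 18839 and 7491 counts. Fos was called at 18815 and 9095, whereas Jun, Junb and Fosb were not, with ratios of -0.53, -0.67 and 0.39. Of the stress-induced heat shock genes, Hspa1a and Hspa1b, near-identical copies that are best read together, had 16238 and 17248 counts in Ly6Chigh and 3713 and 3487 in Ly6Clow cells. The constitutive chaperone Hspa8 had 17288 and 12796 counts and was not called.

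Of 36 transcription factors of macrophages and monocytes 10 were lower and 1 was higher. Ahr, the aryl hydrocarbon receptor, stood at 922 counts in Ly6Chigh and 199 in Ly6Clow cells, and Runx3 at 2688 and 814. Cebpb, which monocytes need to mature, went from 12704 to 5479. Id1 and Id3, which block helix-loop-helix factors, had ratios of -2.20 and -1.51. Bhlhe41, a repressor of the same fold found in tissue macrophages, was the higher one at 299 and 884. The factors that define macrophages were close to level, with -0.11 for Maf, 0.27 for Irf8 and -0.10 for Sfpi1.

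Chemokines followed no single direction. Of 9 CC ligands 4 were lower and 1 was higher, and of 8 CXC ligands 2 were lower and 2 were higher. Ccl2, the ligand of Ccr2, had 5731 counts in Ly6Chigh and 2671 in Ly6Clow cells, and Ccl6 and Ccl9, abundant in myeloid cells, had ratios of -1.44 and -1.70. Ccl8 was the higher CC ligand, at 69.4 and 383 counts. Cxcl10, induced by interferons, went from 382 to 71.1, whereas Pf4, known from platelets and also made by macrophages, went from 3353 to 11871.

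Of 24 matrix proteins and metalloproteases 8 were lower and 2 were higher in Ly6Clow cells, although 13 of the 24 ratios were above 0 and their median was 0.18. Of 14 genes of coagulation and fibrinolysis 6 were lower and 2 were higher, with a median of -0.88. Vcan, a large proteoglycan of provisional matrix, had 9089.9 counts in Ly6Chigh and 126 in Ly6Clow cells. Tgfbi and Fn1, secreted matrix proteins, had 73406 and 69485 counts in Ly6Chigh and 14695 and 36449 in Ly6Clow cells, and Fn1 fell short of 2-fold at -0.93. F10, the clotting factor that activates thrombin, went from 4309.5 to 462, and F5, its cofactor, with a ratio of -2.51. The initiator F7 and the inhibitor of its pathway, Tfpi, were higher with ratios of 1.90 and 1.64. Of the collagen chains, Col4a1 was lower at 135 and 17.5 counts, beside the fibroblast and endothelial markers given above. Timp2, an inhibitor of metalloproteases, and Mmp12, the macrophage elastase, were higher with ratios of 2.05 and 1.98.

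Glycolytic enzymes were close to level, while transporters and targets of hypoxia were lower. Of 29 genes 6 were lower in Ly6Clow cells and none was higher, with a median of -0.44. Slc16a3, which exports lactate, stood at 7886 counts in Ly6Chigh and 1349 in Ly6Clow cells. Slc2a1, the main glucose transporter, went from 4623 to 1684. Ankrd37 and Egln3, textbook targets of hypoxia-inducible factor, went from 229 to 34.7 and from 405 to 69.0 counts. The enzymes Gapdh, Ldha, Pkm and Aldoa had ratios of -0.30, -0.25, -0.15 and 0.28. The factor itself, Hif1a, had 4148 and 2126 counts and a ratio of -0.96. The core of the hypoxia response element, the letters ACGTGC, stood in 13 of the 27 matched promoters of this list (48.1%). The share was 5.91% of all promoters and 8.65% of those of all genes compared. Slc16a3, the gene of this list with the lowest ratio, holds it at 27 and at 14 bases before the start, in capitals in the 150 bases shown (chr11:120948917-120949066, plus strand).
Slc16a3: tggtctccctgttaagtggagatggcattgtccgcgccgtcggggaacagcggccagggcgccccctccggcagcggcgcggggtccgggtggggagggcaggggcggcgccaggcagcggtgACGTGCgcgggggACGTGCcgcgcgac

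Lipid mediators are the subject of the study, and their receptors and enzymes were listed apart. Of 10 receptor genes with enough counts 5 were lower in Ly6Clow cells and none higher, with a median of -1.0009. Ltb4r1, the high-affinity receptor for leukotriene B4, had 828 counts in Ly6Chigh and 93.7 in Ly6Clow cells. Fpr2, a receptor for formyl peptides and some resolving lipids, went from 206 to 25.5, and Gpr132 from 2972 to 490. Ptger4, a prostaglandin E2 receptor, and Cysltr1, a receptor for cysteinyl leukotrienes, had ratios of -1.17 and -1.07. Gpr18, proposed as the receptor for RvD2, was under the minimum in both at 12.1 and 1.45 counts. Of 16 genes of arachidonate release and of prostaglandin and thromboxane synthesis 2 were higher and 1 was lower, and of 7 lipoxygenase and leukotriene enzymes 1 was higher and none lower. Ptgs2, the inducible cyclooxygenase, was lower at 6176 and 1919 counts, while Ptgs1, the constitutive one, had 37.3 and 82.8 and a ratio of 0.97, just under 2-fold. Downstream of them the thromboxane synthase Tbxas1 and the prostaglandin D synthase Hpgds were higher with ratios of 1.15 and 1.61. Of the lipoxygenase genes, Alox5 had 120.3 counts in Ly6Chigh and 186 in Ly6Clow cells and was not called, Ltc4s, which makes leukotriene C4, went from 9.92 to 67.6, and Alox15 stayed under the minimum at 11.5 and 28.4.

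Large families of general function stayed near equality. Of 80 cytoplasmic ribosomal protein genes 1 was called, Rps27, and the median was -0.27 with 74 ratios below 0. Of 73 genes of the mitochondrial ribosome none was called, with a median of 0.24 and 60 ratios above 0. Of 76 respiratory chain genes 1 was called, Cox7a1 at 26.2 and 73.2 counts, with a median of 0.19. None of 37 proteasome genes was called. Of 70 replication-dependent histone genes, whose mRNAs carry no poly-A tail, 4 had enough counts in these poly-A libraries.

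**Figure D3:**
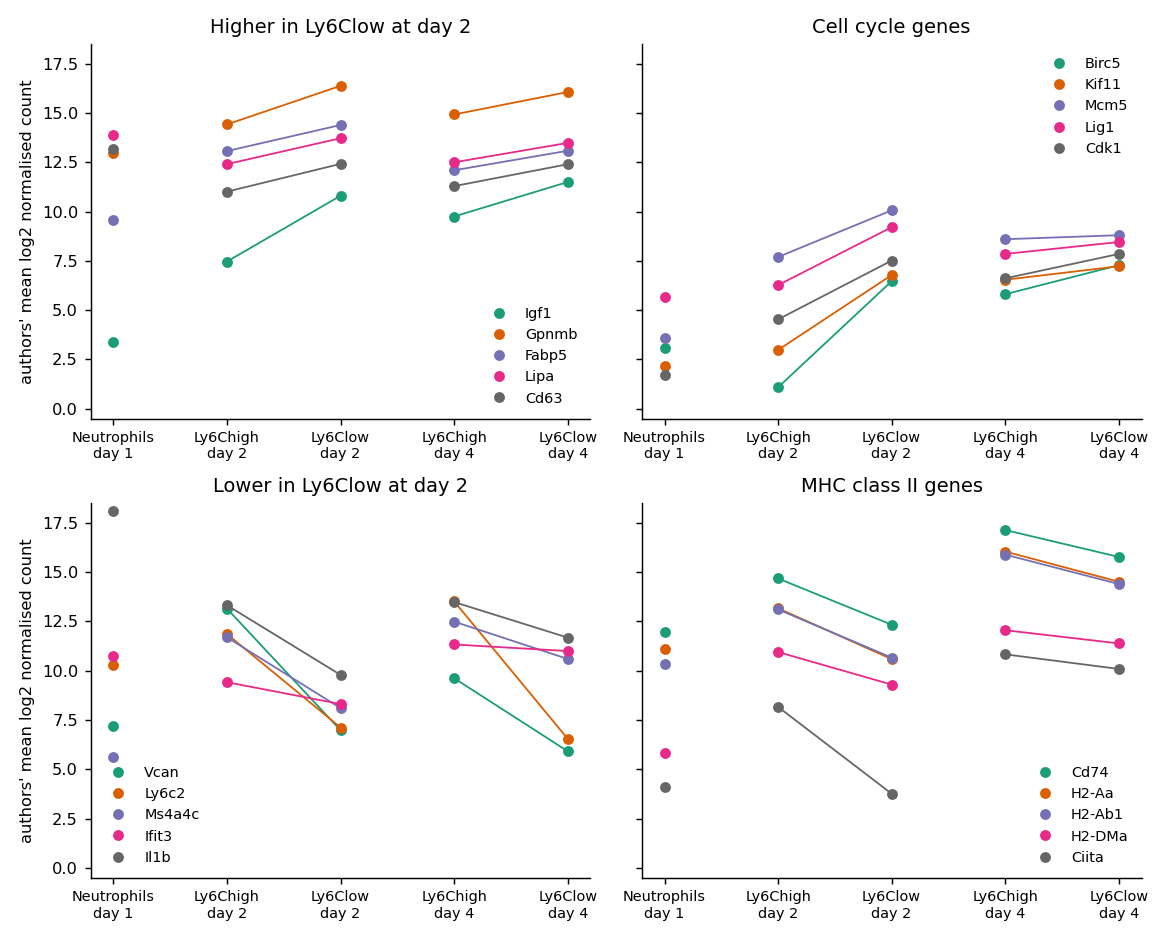
Mean log2 normalised counts of 20 genes (y axis) in neutrophils and the 4 macrophage groups (x axis), in panels for genes higher in Ly6Clow cells, cell cycle genes, genes lower in Ly6Clow cells and MHC class II genes, with lines joining the subsets of a day. The lines of the cell cycle panel are steep at day 2 and flatter at day 4, and those of the MHC class II panel slope down on both days.

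Called genes lay beside genes called the same way more often than all genes compared did, mostly on the lower side. Coordinates came from GENCODE on GRCm38 for 11152 of the 11275 genes. For 611 genes lower in Ly6Clow cells, the nearest gene among those compared was also lower in 156 cases (25.53%), against 5.1% over all genes compared. For 662 genes higher in Ly6Clow cells it was also higher in 75 cases (11.33%), against 6.04%. In genes whose nearest gene does not overlap them, an alternative chosen after seeing the data, the shares were 23.55% against 5.34% and 9.42% against 6.35%. Runs of at least 4 called genes with gaps of at most 200 kb numbered 16 on the lower and 6 on the higher side. The one with most genes lay at chr1:173468485-174031810, where 11 of 12 genes compared were lower, the interferon-inducible family of DNA sensors with Ifi203, Ifi204, Ifi205 and Mnda. At chr19:34550694-34650009 all 5 genes were lower, Ifit1, Ifit2 and Ifit3 among them, whose products bind foreign RNA. At chr3:142530342-142638008 the 4 guanylate-binding genes Gbp2, Gbp3, Gbp5 and Gbp7 were lower, and at chr11:82951349-83215154 5 of 9 genes, all of the Schlafen family. The Ly6 genes Ly6a, Ly6c1, Ly6c2 and Ly6e, 4 of 4 at chr15:74955051-75111970, had a median ratio of -3.46. At chr1:88055388-88219004 8 of 9 genes were lower and 1 was higher, with a median of -3.31. The 8 are Ugt1a genes, which share exons but were counted singly. At chr6:122727809-123289870 8 of 13 genes were lower, 7 of them C-type lectins of the Clec4 family. At chr17:34119541-34316674 6 of 13 genes were lower, all of MHC class II, and 1 was higher, and at chr17:34728380-34981788 9 of 18, with the complement genes C2, C4b and Cfb beside Hspa1a and Hspa1b. Members of such families are copies of one another and share letters, so their reads may be split or shared, and the libraries as described do not mark strand. Of the 1281 called genes 220 overlap another of the genes compared.

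The same contrast was available in other samples, the subsets of day 4, at 2 samples each. Of genes compared on both days, 2.65% were called higher and 2.35% lower at day 4, each under the shares of day 2. Of 636 genes higher at day 2 that could be compared at day 4, 608 (95.6%) had a ratio of the same sign, where 51.87% of all genes compared on both days had a ratio above 0, and 224 (35.22%) were called higher again. Of 583 lower genes, 558 (95.71%) kept the sign, against 48.13% of all genes below 0, and 199 (34.13%) were called lower again. The ratios of these genes were smaller at day 4, with medians of 1.41 at day 2 and 0.79 at day 4 for the higher genes and of -1.42 and -0.77 for the lower ones. Since they were chosen by the size of the day 2 ratio, smaller ratios in other samples would follow from that choice too. Replication genes had a median of 1.32 with 24 of 39 called at day 2 and of 0.05 with 0 of 36 called at day 4, and the ratio of Lig1 was 2.79 and 0.58. Mitotic genes had medians of 2.00 and 0.89, with 10 of 31 called higher at day 4, and Birc5 had 3.02 and 1.33. Type I interferon genes had -1.33 and -0.52, and Ifit3, whose product binds foreign RNA, had -1.08 and -0.33. Monocyte genes had -1.58 and -1.30, with 16 of 24 called lower at day 4, and Plac8 had -5.91 and -3.96. Scavenger receptors went the other way, with 1.17 and 1.79 and with 9 of 15 called higher at day 4. The differences between days have no test.

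**Figure D4:**
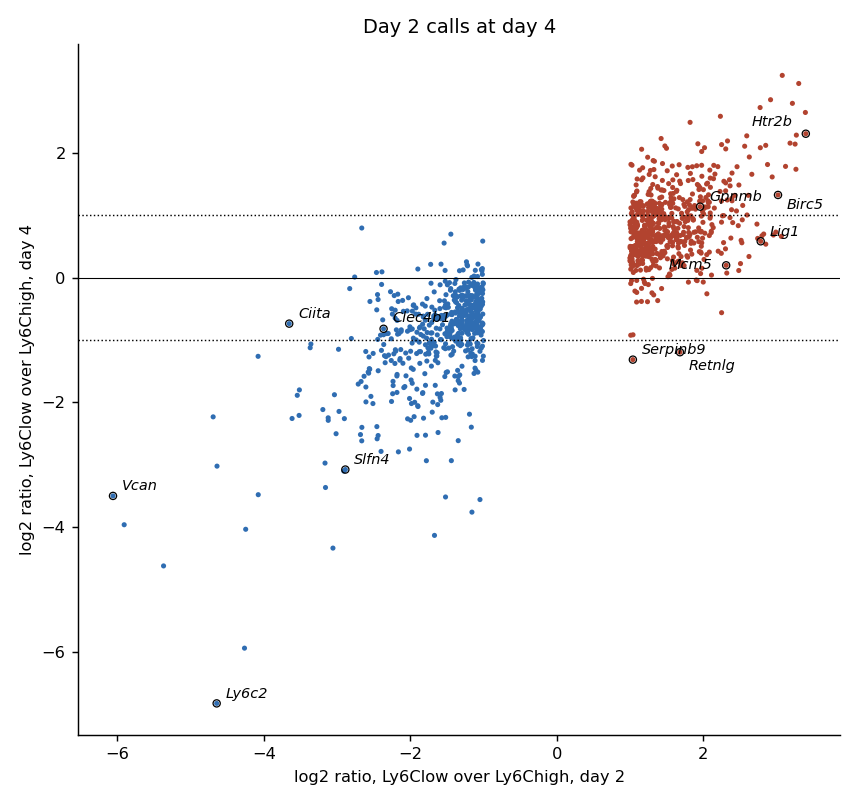
Log2 ratios of Ly6Clow over Ly6Chigh cells at day 2 (x axis) and day 4 (y axis) for the genes called at day 2 and compared on both days, red for higher and blue for lower. Most points keep their sign but lie nearer to 0 on the y axis than on the x axis, with medians of 0.79 and -0.77 at day 4.

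Neutrophils of day 1, another cell type of the same table, give a reference for the direction of the difference. Genes lower in Ly6Clow cells had a neutrophil level above both macrophage subsets in 57.63% of cases, against 43.02% over all genes compared and 10.83% of the higher genes. Genes higher in Ly6Clow cells had a neutrophil level under 10% of that in the higher subset in 54.14% of cases, against 10.13% over all genes and 14.12% of the lower genes. Il1b is an example of the first kind, with a log2 level of 18.12 in neutrophils against 13.32 in Ly6Chigh and 9.79 in Ly6Clow cells. Mcm5 is one of the second, at 3.57 in neutrophils against 7.69 and 10.06. The neutrophil column sums to 26.0 M counts against 12.5 and 12.6 M in the subsets, so its levels are not on an equal total. With the neutrophil column rescaled to the mean total of the subsets, an alternative chosen after seeing the data, its level was above both subsets for 46.75% of the lower genes, 21.78% of all and 5.56% of the higher. It was then under 10% of the higher subset for 65.26% of the higher genes, 17.87% of all and 20.29% of the lower.

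The BMDM libraries offer a replicated test that the day 2 contrast did not use. With limma and Benjamini-Hochberg adjustment over 15239 genes, 121 genes rose and 162 fell after 4 h of RvD2 at an adjusted p under 0.05. Nothing in the labels says that the libraries came from separate cultures, so these p-values measure the spread between libraries. Among 11211 genes of the day 2 comparison that could be tested, 1.02% rose and 1.15% fell. Of 662 genes higher in Ly6Clow cells, 34 (5.14%) fell with RvD2 and 5 (0.755%) rose. Of 568 genes lower in Ly6Clow cells, 40 (7.04%) rose and 4 (0.704%) fell. The median change of the lower genes was 0.13, with 69.89% above 0, against -0.0037 over all genes of the comparison. The 34 became 14, 16 and 18 without untreated replicates 1, 2 and 3, and 11 and 10 without RvD2 replicates 2 and 3. The 40 became 20, 18 and 26 without the untreated replicates in that order, and 17 and 13 without RvD2 replicates 2 and 3.

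Genes that were lower in Ly6Clow cells and rose with RvD2 included receptors, immediate early genes and hypoxia targets. Gpr35, an orphan receptor coupled to G proteins, had log2 levels of 7.10, 7.14 and 7.02 in untreated and 8.30, 8.22 and 8.22 in RvD2 libraries, with no overlap. Its change was 1.16 (SE 0.080, limma adjusted p = 0.00125, n = 3 and 3), beside a day 2 ratio of -1.77. Nr4a1, an immediate early nuclear receptor, had 7.35, 7.74 and 7.66 untreated and 8.75, 8.86 and 9.32 with RvD2. Its change was 1.40 (SE 0.16, limma adjusted p = 0.00626). Ankrd37 had 4.37, 4.18 and 4.27 and 5.97, 5.91 and 5.90, a change of 1.66 (limma adjusted p = 0.00324). Slc2a1, the glucose transporter, had 10.38, 10.60 and 10.47 and 11.23, 11.19 and 11.16, a change of 0.71 (limma adjusted p = 0.00324). In each of these genes all 3 RvD2 libraries stood above all 3 untreated ones. They were picked from genes that passed the test on these same libraries, so this adds no further support. Over the whole lists, whatever the day 2 call, 9 of 33 immediate early genes and 6 of 31 glycolysis and hypoxia genes rose. Of all 15239 genes tested 121 rose. Growth signals Lif and Osm rose by 1.04 and 0.99 (limma adjusted p = 0.00733 and 0.0106). The flagellin receptor Tlr5 rose by 1.69 and the phosphodiesterase Pde4b by 1.21 (limma adjusted p = 0.00585 and 0.0399). Of 44 type I interferon genes 0 passed the limma test after adjustment and 7 had an increase at an unadjusted p under 0.05, with a median change of 0.32. Of all 15239 genes tested by limma, 1089 (7.15%) had an increase and 1281 (8.41%) a decrease at that p. The rises of Gpr35, Nr4a1, Ankrd37, Slc2a1, Lif and Tlr5 passed without any one of the 6 libraries, that of Osm in 5 of the 6 such fits and that of Pde4b in 1. Without a mean-variance trend those of Nr4a1, Lif, Osm and Pde4b no longer passed.

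Of the 34 genes that were higher in Ly6Clow cells and fell with RvD2, 16 were on the mitotic list. Of all 43 mitotic genes, which could all be tested in BMDM, 24 fell, with a median of -0.48, and 0 rose, also at an unadjusted p under 0.05 by limma. Ccnb2, a mitotic cyclin, had log2 levels of 8.31, 8.25 and 8.20 in untreated and 7.27, 7.34 and 7.21 in RvD2 libraries. Its change was -0.98 (SE 0.080, limma adjusted p = 0.00279), beside a day 2 ratio of 2.07. Plk1, a kinase of mitosis, had 9.12, 8.88 and 8.94 and 8.43, 8.07 and 8.16, a change of -0.76 (limma adjusted p = 0.0132). Cenpe, a kinetochore motor, fell by 0.82 and Birc5 by 0.45 (limma adjusted p = 0.00402 and 0.0151). Replication genes, which stood beside the mitotic ones at day 2, gave 1 of 42 that fell after adjustment. At an unadjusted p under 0.05 by limma 6 of the 42 had a decrease and 2 an increase, beside the 8.41% and 7.15% of all genes tested, and their median was -0.09. Outside cell division, Hpgds, the prostaglandin D synthase, fell by 0.42 (limma adjusted p = 0.0467). Among the 4 genes that were lower in Ly6Clow cells and also fell with RvD2 was Gsr, a glutathione reductase. It had 10.88, 11.03 and 10.93 in untreated and 10.44, 10.49 and 10.40 in RvD2 libraries, a change of -0.50 (limma adjusted p = 0.00693). Another was the non-coding Mir22hg. The falls of Ccnb2, Cenpe, Gsr and Mir22hg passed without any one library, that of Plk1 in 3 of the 6 such fits, that of Birc5 in 2, and that of Hpgds in 1. Without a mean-variance trend those of Plk1, Birc5, Hpgds, Gsr and Mir22hg no longer passed, and those of Ccnb2 and Cenpe still did. The 5 genes that were higher and also rose were Angptl4, an inhibitor of lipoprotein lipase, Gpt2, Pck2, Rcan1 and S1pr1, and Angptl4 passed in 0 of the 6 fits without 1 library.

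**Figure D5:**
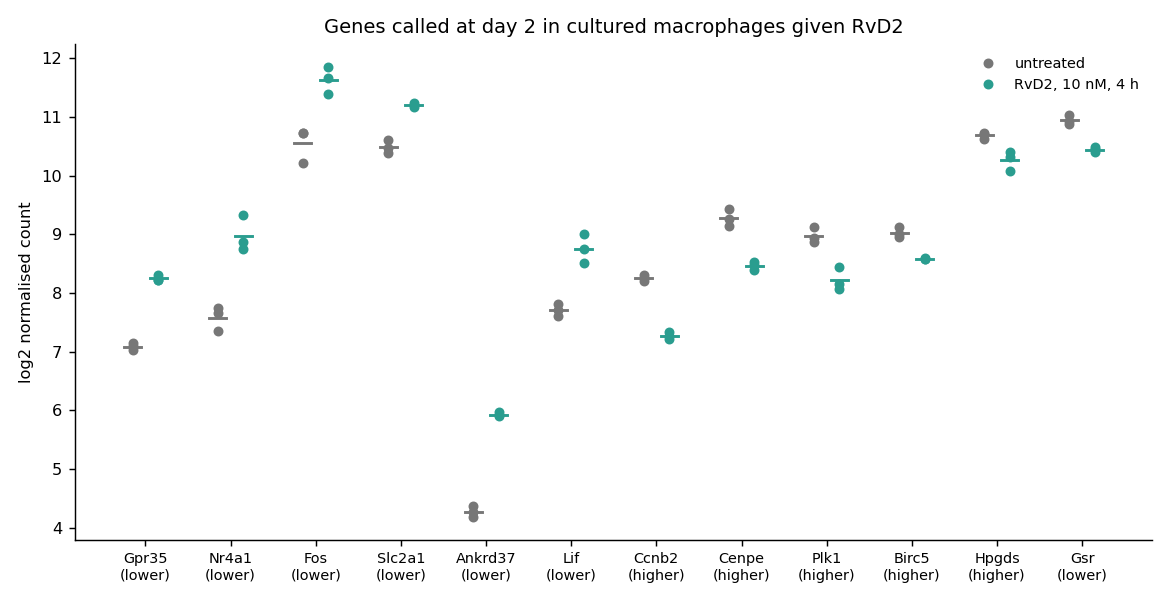
Log2 normalised counts of 12 genes in 3 untreated (grey) and 3 RvD2 (coloured) BMDM libraries, 1 dot per library with bars at the means. Genes called lower in Ly6Clow cells at day 2, such as Gpr35 and Nr4a1, stand higher with RvD2, and mitotic genes called higher, such as Ccnb2 and Plk1, stand lower, while Gsr is lower in both comparisons.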

How the data were processed

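Deposited tables of 2 kinds were used, muscle cells as 1 column per group and BMDM as 1 column per library. Per the labels' protocols, poly-A RNA libraries were made with an Illumina TruSeq kit, with no step that marks strand described, and sequenced on a HiSeq. The tools were TopHat2 2.0.7 and DESeq and the build mm10, per the submitters' processing notes. The sources used here do not give the annotation behind the counts. Per the file headers the deposited values are normalised and the muscle columns stand for groups. The values themselves show that the authors deposited log2 counts, with values below 1 count set to 0, and that each muscle column is a mean of these log2 values over the libraries of a group.

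From the muscle columns, counts were recovered as powers of 2, 10 was added, and log2 ratios were formed for genes with at least 50 counts in the higher subset, with 2-fold as the call. The 2 cells that stand as dates were treated as missing. RvD2 and untreated libraries of BMDM entered a linear model in limma 3.58.1 (R 4.3.3; mean-variance trend, mean count of at least 10, two-sided, Benjamini-Hochberg adjustment over all genes tested, threshold 0.05). Fits were tested on simulated data. The 71 gene lists, the genes compared and the motifs were chosen with earlier results of these data known. Genes named by rule were sort antigens and macrophage genes, the 15 largest ratios and 10 largest count differences in each direction, up to 4 called members of each list in each direction, and genes next to a threshold, 335 in all. Another 102 were chosen after their values were seen or for their promoter. GENCODE M21 matched 95.33% of gene IDs. Promoters were found for 69.83% of the genes compared, 77.89% of the higher and 72.24% of the lower ones, so motif shares over all called genes are void for want of matches and are given for lists with at least 80% matched.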

Additional observations from a re-analysis of the deposited data

Results flagged for a closer look

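Of the genes called at day 2 and compared at day 4, 2 were called in the opposite direction at day 4. Serpinb9, an inhibitor of the protease granzyme B, had 33.4 counts in Ly6Chigh and 79.1 in Ly6Clow cells at day 2, a log2 ratio of 1.04, and a ratio of -1.32 at day 4. Retnlg, a resistin-like protein of neutrophils, had 22.5 and 94.2 counts at day 2, a ratio of 1.68, and a ratio of -1.20 at day 4. Of 7 neutrophil markers compared at day 2, 4 had ratios above 0 and 3 below, with Retnlg called higher and Cd177 lower. The whole list summed to 4445.8 counts in Ly6Chigh and 3181.2 in Ly6Clow cells. The part of neutrophils in the Retnlg values was not tested. With 50 counts added in place of 10, the day 2 ratios of Serpinb9 and Retnlg were 0.63 and 0.99, both under 2-fold. Each group is 1 averaged column, so the difference between the days was not tested.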

How the results depend on the processing

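Of the 1281 genes called at day 2, 265 were called higher and 401 lower under every setting tried on the muscle table, and none was called the other way. With 50 counts added instead of 10, 371 genes were higher, 135 of them again at day 4, and 7 lists in place of 11 had a median of at least 1 in size. With a minimum of 200 counts, 326 were higher, and 133 higher and 126 lower genes were called the same way at day 4. That minimum and the 50 counts added moved the share of calls that were higher from 51.91% to 41.53% and 44.7%. With the neutrophil column rescaled, the shares of lower, all and higher genes above both subsets were 46.75%, 21.78% and 5.56%, and the shares of higher, all and lower genes under 10% were 65.26%, 17.87% and 20.29%. Between 200 bases before the start and the start, 25.9% of mitotic promoters held the CHR letters. Of the genes named above as called, Mybl2, Cenpe, Fabp3, Gdf3, Il18bp, Cox7a1, Ltc4s, Pck2, Nfkb1, Gbp3, Gbp5, Gpr77, C4b, Nlrc5, Ifit1, Ifit3, Pde4d, Cysltr1, Pecam1, Jak2, Fbxo21, Serpinb9, Retnlg, Col1a1, Col1a2 and Col3a1 were under 2-fold with 50 counts added.

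For RvD2, genes higher in Ly6Clow cells and lowered, higher and raised, lower and raised, and lower and lowered numbered 34, 5, 40 and 4. The replicate block gave 80, 31, 108 and 19. Without a count filter they numbered 18, 0, 18 and 2, and without a mean-variance trend 6, 0, 8 and 0. Without 1 library they ranged from 10 to 33, 0 to 5, 13 to 39, and 2 to 4. Same-numbered libraries had correlations of their deviations of 0.29, 0.024 and 0.052, and the other pairs from -0.261 to 0.185. Whether the numbers pair the libraries cannot be told from these values. No paired analysis was possible because the muscle columns are group averages. Of the tested RvD2 changes of single genes, 533 values kept their side of the threshold under these settings, 380 no longer passed and 0 reversed. The group averages carry no spread, and depth limits genes under about 50 counts.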
